A study of Homo sapiens with 9 samples.

Results

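The early response genes EGR1, EGR3, IER2, IER3, IER5, KLF6, KLF10, ZFP36, ZFP36L1 and DUSP1 were followed in the cytoplasm of HCT116 cells, a human colorectal carcinoma line, after depletion of an mRNA export factor. These 10 genes were taken by name, and all probes annotated to them were read out. In all, 13 of the 48803 probes on the array carried one of their symbols. They covered 9 of the 10 genes, because no probe was annotated to IER3 in the table used here, so IER3 was not analysed here. Cells had been transfected with a GANP siRNA, an NXF1 siRNA or a control siRNA, and cytoplasmic RNA was taken by digitonin permeabilisation after 72 h. Each siRNA was used in 3 independent depletion experiments, and each group therefore had 3 Illumina HumanWG-6 v3 arrays, 1 from each experiment (9 arrays in all). Each factor was targeted by a single siRNA, and the control siRNA was a GANP siRNA with a few altered bases, so an off-target effect of an siRNA cannot be told apart from loss of the factor. The nuclear RNA was not on these arrays, and lower export, lower synthesis and faster decay of an mRNA cannot be told apart in these values.

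Early response genes are transcribed within minutes of growth factor or stress signals, without need for new protein, and their mRNAs are usually short-lived. Their promoters are classically switched on by serum response factor with its ETS-type partners at CArG boxes and by CREB-type factors at cyclic AMP response elements (CREs). AU-rich elements near the end of many of these mRNAs recruit decay factors, among them the products of ZFP36 and ZFP36L1. GANP is the scaffold of the TREX-2 complex, which helps NXF1, the general mRNA export receptor, to carry mRNAs to nuclear pores. The question put to the arrays was whether the mRNAs of these genes became rarer in the cytoplasm when either export factor was depleted. Rarer here means relative to the other transcripts of an array.

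Promoter windows from RefSeq (GRCh38.p14, from 250 bases before to 50 bases after the start) were at hand for 7 of the 10 genes, with 8 windows because ZFP36L1 had 2. EGR1, which fell in both depletions, had 2 CArG boxes (CC, then 6 bases of A or T, then GG) in its window and was the 1 gene of the 7 with any. Across all 35116 windows of this length 1.29% held a CArG box on either strand. A full CRE (TGACGTCA), found in 1.85% of all windows, was present in the windows of ZFP36L1 and DUSP1, at 1 of the 2 starts of ZFP36L1. The shorter CRE half-site (TGACG), which every full CRE contains, was found in 4 of the 7 genes and in 24.6% of all windows. The 4 genes were EGR1, IER2, ZFP36L1 and DUSP1. A GC box (GGGCGG) was present in 4 of the 7 genes and in 45% of all windows. For a TATA box (TATAAA) this was 1 of the 7 genes and 11.5% of all windows. The stretches with a CArG box or a full CRE are shown 5′ to 3′ along each gene's own strand, with the motif in capitals.
EGR1 CArG box at bases -105 to -96, chr5:138465364-138465393, plus strand: gccggtcctgCCATATTAGGgcttcctgct
EGR1 CArG box at bases -83 to -74, chr5:138465386-138465415, plus strand: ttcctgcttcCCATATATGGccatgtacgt
ZFP36L1 CRE at bases -52 to -45, chr14:68793451-68793478, minus strand: gtggaatgagTGACGTCAcagccgcgct
DUSP1 CRE at bases -125 to -118, chr5:172771303-172771330, minus strand: gcagggcgggTGACGTCAccgccccgtc
The base just before the start is counted as -1. A match describes the letters of the window and was not tested as a binding site. Only exact letters inside these windows were searched. A gene without a match may therefore carry such an element elsewhere or in other letters.

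As a check of the labels, MCM3AP, the gene that encodes GANP, was lower on all 3 GANP siRNA arrays, with a log2 fold change against control siRNA of -1.04 (standard error 0.10, adjusted p = 7.02e-05 in limma). No probe was annotated to NXF1, and its own mRNA was not analysed here. The signals are log2 values after background modelling and quantile normalization, so each change is relative to the other transcripts of an array. A fall shared by most transcripts would not be seen. By in situ hybridization the paper reports less poly(A)+ RNA in the cytoplasm after GANP and after NXF1 depletion. A rise or a value near 0 is therefore no measure of the absolute amount of an mRNA. A gene entered the test when its brightest probe averaged over 6.35 on the log2 scale, the midpoint of the array's probes, which left 13118 genes, the 9 early genes among them. Calls needed an adjusted p under 0.05 together with a log2 fold change over 0.25 or under -0.25. Of 7 colon epithelium markers, 6 passed the filter, and VIL1 did not. Of 6 fibroblast and 6 blood cell markers 2 each passed, and the summed signal of the blood markers was 1121 to 1259 with NXF1 siRNA against 770.9 to 871.5 with control siRNA and 791.8 to 949.8 with GANP siRNA. Of these the globin gene HBA1 was brightest, with a mean log2 signal of 9.23, while the leukocyte marker PTPRC stayed under the filter at 6.30. The summed signal of the colon markers was also higher with NXF1 siRNA, at 77770 to 78210 against 62620 to 66120 with control siRNA. These sums are on the linear scale and rest mostly on KRT18 and KRT19, with mean log2 signals of 15.11 and 14.22. Changes of the single markers were not compared here. The part of these markers in the results below was not tested.

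After GANP siRNA 2 of the 9 early genes fell, EGR1 and KLF6, and 0 rose. Among all genes tested 5.90% fell and 6.28% rose. At an unadjusted p under 0.05 in limma, which 26.0% of all genes met, 4 of the 9 passed, all with values below 0. The median log2 fold change of the 9 genes was -0.15, against 0.00 for all genes, and 7 of the 9 values were below 0. For EGR1, IER2, IER5, KLF6 and KLF10 all 3 GANP siRNA arrays lay below all 3 control arrays, an arrangement that 15.5% of all genes showed. No early gene had all 3 above the control arrays, as 15.8% of all genes did, and 31.3% of all genes were apart in one direction or the other. With 9 genes these shares are a description only. They are also not matched for signal: the 9 probes used lay at percentiles 74.8 to 95.7 of mean signal, while the genes tested reached down to the median. With the filter at percentile 75, which leaves fewer genes, 836 rose and 839 fell after GANP siRNA, against 824 and 774 here. The shares called were thus larger among the brighter genes. At that filter EGR3 was no longer tested, and IER2 was also called down.

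EGR1, a zinc finger transcription factor that rises after growth factor stimulation (chr5:138465479-138469303), gave log2 signals of 12.17, 12.01 and 11.82 with control siRNA in experiments 1, 2 and 3. With GANP siRNA the signals were 11.19, 11.22 and 11.16. With NXF1 siRNA they were 11.54, 11.43 and 11.66. The 3 groups did not overlap at any array, and the order was control, then NXF1 siRNA, then GANP siRNA. EGR1 fell by 0.81 on the log2 scale after GANP siRNA (standard error 0.10, adjusted p = 0.000307 in limma), to a 0.57-fold level. It fell in every experiment, by 0.98, 0.79 and 0.66 in experiments 1, 2 and 3. The control arrays spread more (SD 0.17) than the GANP siRNA arrays (SD 0.03).

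KLF6, a Krüppel-like factor that binds GC-rich promoters (chr10:3775996-3785209), gave log2 signals of 11.73, 11.50 and 11.63 with control siRNA. The signals with GANP siRNA were 11.26, 11.14 and 11.28, all below the control arrays. With NXF1 siRNA they were 11.62, 11.49 and 11.61, inside or just under the control range. KLF6 fell by 0.39 on the log2 scale after GANP siRNA (standard error 0.08, adjusted p = 0.0107 in limma), with differences of -0.46, -0.35 and -0.35 in the 3 experiments. The change was close to even from one experiment to the next.

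**Figure D1:**
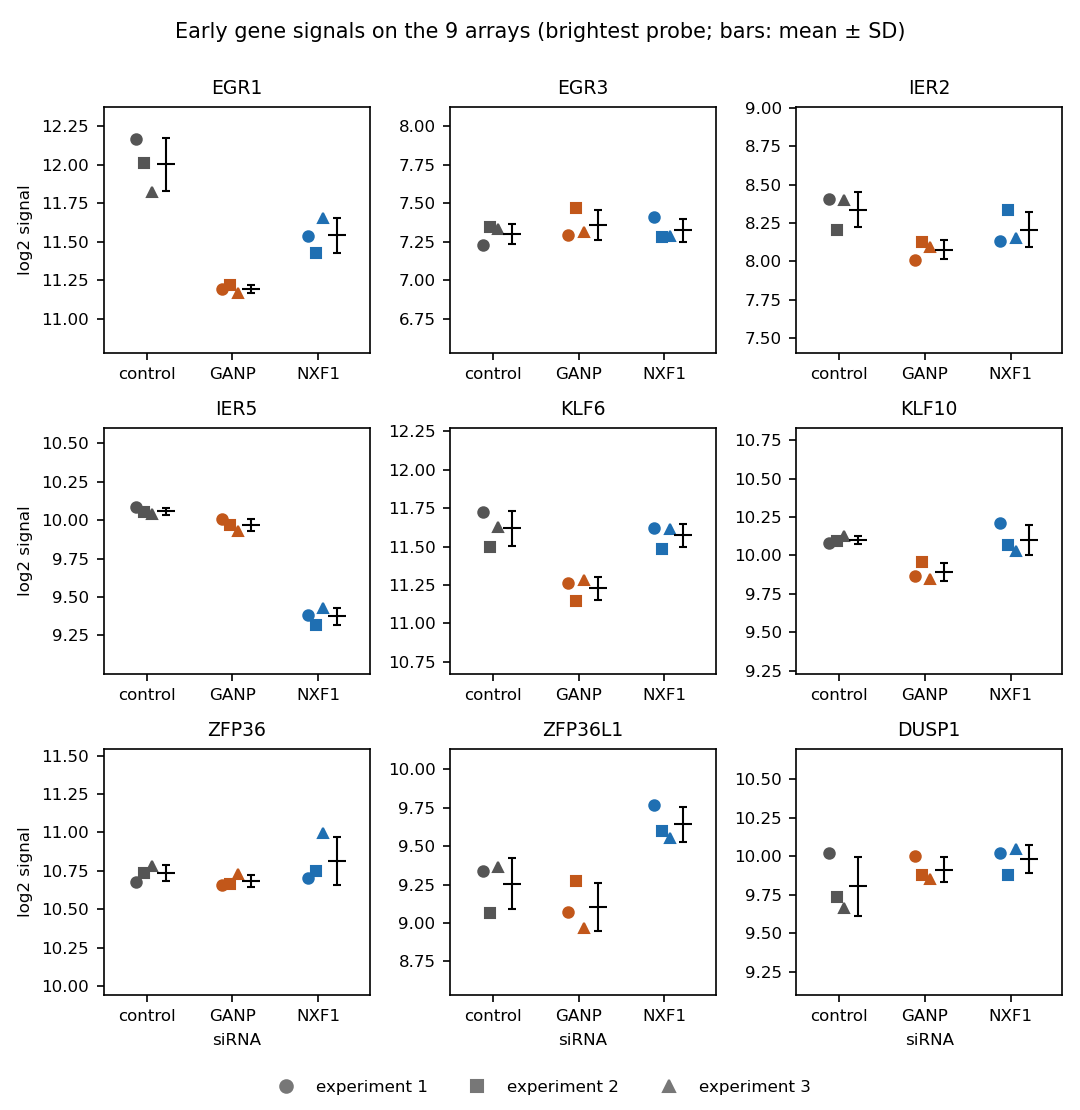
Log2 signal of the brightest probe of each of the 9 early genes (y axis) on the arrays of the control, GANP and NXF1 siRNA groups (x axis), with 1 symbol per experiment and bars for the mean ± SD of 3 arrays. EGR1 separates the 3 groups, KLF6 is lowest with GANP siRNA, and IER5 is lowest and ZFP36L1 highest with NXF1 siRNA.

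IER2 and KLF10 had all GANP siRNA arrays below the control arrays without a call. IER2, a growth-factor-induced nuclear protein, gave log2 signals of 8.41, 8.21 and 8.40 with control siRNA, 8.01, 8.13 and 8.09 with GANP siRNA and 8.13, 8.34 and 8.15 with NXF1 siRNA. For GANP siRNA the log2 fold change was -0.26 (95% interval -0.45 to -0.07, adjusted p = 0.0718 in limma). With the filter raised to percentile 75 of the probes, the same value passed (adjusted p = 0.0432). KLF10, also known as TGFB-inducible early gene, gave log2 signals of 10.08, 10.09 and 10.13 with control siRNA on its brightest probe, 9.87, 9.96 and 9.85 with GANP siRNA and 10.21, 10.07 and 10.03 with NXF1 siRNA. Its log2 fold change of -0.21 after GANP siRNA (95% interval -0.38 to -0.04, adjusted p = 0.1 in limma) was smaller than the fold threshold.

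After NXF1 siRNA 2 of the 9 genes fell, IER5 and EGR1, and 1 rose, ZFP36L1. Among all genes tested 14.0% fell and 11.6% rose, so calls in both directions together (3 of 9) were near the 25.6% of all genes. The median log2 fold change was 0.00 for the 9 genes and 0.00 for all genes. All 3 arrays were apart from the control arrays for these 3 genes, and for 39.7% of all genes (18.7% above and 21.0% below).

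IER5, an early response protein that acts on the heat shock factor HSF1 (chr1:181088700-181092900), gave log2 signals of 10.08, 10.06 and 10.04 with control siRNA and 10.01, 9.97 and 9.93 with GANP siRNA. With NXF1 siRNA they were 9.39, 9.32 and 9.43. The NXF1 siRNA arrays stood far below both other groups, whose own means were 0.09 apart. IER5 fell by 0.68 on the log2 scale after NXF1 siRNA (standard error 0.07, adjusted p = 3.34e-05 in limma), with differences of -0.70, -0.74 and -0.61 in the 3 experiments. After GANP siRNA the log2 fold change was -0.09 (95% interval -0.24 to 0.07, adjusted p = 0.488), although its 3 arrays lay just under the control arrays.

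EGR1 fell by 0.46 on the log2 scale after NXF1 siRNA (standard error 0.10, adjusted p = 0.00343 in limma). The fall was uneven between experiments, with differences of -0.63 and -0.58 in experiments 1 and 2 and -0.17 in experiment 3, where the control array was the lowest of its group and the NXF1 siRNA array the highest of its own. The log2 fold change of KLF6 was -0.04 (95% interval -0.23 to 0.14) and that of KLF10 was 0.00 (95% interval -0.16 to 0.17). For IER2 it was -0.13 (95% interval -0.32 to 0.06).

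ZFP36L1, an RNA-binding protein that directs AU-rich mRNAs to decay (chr14:68787655-68796243), was the 1 early gene that rose. It gave readings of 9.34, 9.07 and 9.36 (log2) in control cells, 9.07, 9.28 and 8.97 with GANP siRNA and 9.77, 9.60 and 9.55 with NXF1 siRNA. All NXF1 siRNA arrays lay above the other 6 arrays, which overlapped each other. The rise was 0.39 on the log2 scale (standard error 0.11, adjusted p = 0.0174 in limma), and 0.43, 0.53 and 0.19 in the 3 experiments. The call was lost without NXF1 siRNA replicate 1 (log2 fold change 0.32, adjusted p = 0.0603) or control siRNA replicate 2 (0.29, adjusted p = 0.088). After GANP siRNA ZFP36L1 had a log2 fold change of -0.15 (95% interval -0.38 to 0.08, adjusted p = 0.423), which ran from -0.25 to -0.08 without 1 array in turn.

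ZFP36 and DUSP1 were called in none of the 3 comparisons, and neither was EGR3. ZFP36, or tristetraprolin, the founding member of the AU-rich decay factors, gave log2 signals of 10.68, 10.74 and 10.78 with control siRNA, 10.66, 10.67 and 10.73 with GANP siRNA and 10.70, 10.75 and 10.99 with NXF1 siRNA. The NXF1 siRNA array of experiment 3 was the highest, and the groups overlapped. Its log2 fold change was -0.05 (95% interval -0.24 to 0.14) after GANP siRNA and 0.08 (95% interval -0.11 to 0.27) after NXF1 siRNA. DUSP1, a phosphatase that inactivates MAP kinases, gave log2 signals of 10.02, 9.73 and 9.66 with control siRNA, 10.004, 9.88 and 9.85 with GANP siRNA and 10.02, 9.88 and 10.05 with NXF1 siRNA. The control array of experiment 1 was as high as the arrays of the depleted cells. DUSP1 had a log2 fold change of 0.11 (95% interval -0.11 to 0.32, and 0.03 to 0.22 without 1 array in turn) after GANP siRNA and 0.18 (95% interval -0.04 to 0.39, adjusted p = 0.231) after NXF1 siRNA. Without control siRNA replicate 1 the latter became 0.28 and passed (adjusted p = 0.0424).

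EGR3, a relative of EGR1 with like DNA-binding zinc fingers, had the lowest signal of the 9 genes. On the brighter of its probes the log2 signals ran at 7.23, 7.35 and 7.33 in control cells, 7.29, 7.47 and 7.31 with GANP siRNA and 7.41, 7.28 and 7.28 after NXF1 depletion. The groups overlapped, and the differences from control were 0.05 (95% interval -0.12 to 0.23) and 0.02 (95% interval -0.15 to 0.20). Detection p-values were not used here, so whether EGR3 mRNA was present was not tested.

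**Figure D2:**
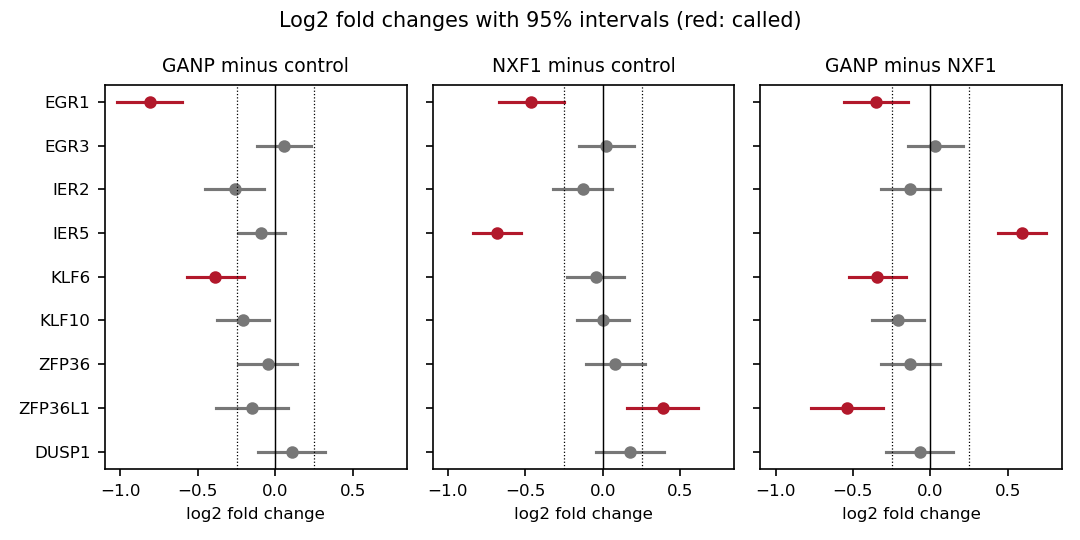
Log2 fold changes (x axis) of the 9 early genes (y axis) in the 3 comparisons, with 95% intervals from limma; red marks called genes and dotted lines the fold threshold of 0.25 either way. EGR1 is called in all 3 panels. IER5 is below 0 in the GANP minus control (-0.09, not called) and NXF1 minus control (-0.68) panels. It is above 0 in the GANP minus NXF1 panel (0.59), where the NXF1 value is subtracted.

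Set directly against each other, the depleted groups differed in 4 of the 9 genes. Of these EGR1, KLF6 and ZFP36L1 were lower with GANP siRNA, and IER5 was lower with NXF1 siRNA. Among all genes tested 8.29% were lower and 11.3% higher with GANP siRNA, 19.6% together. IER5 was 0.59 higher on the log2 scale with GANP siRNA (standard error 0.07, adjusted p = 0.000166 in limma) and ZFP36L1 was 0.54 lower, at -0.54 (standard error 0.11, adjusted p = 0.00405). EGR1 differed by -0.35 (standard error 0.10, adjusted p = 0.0217), and that call was lost without any 1 of the 3 GANP siRNA arrays (adjusted p between 0.0506 and 0.0585) or NXF1 siRNA replicate 3 (adjusted p = 0.0821). KLF6 differed by -0.34 (standard error 0.08, adjusted p = 0.0129), a call lost without GANP siRNA replicate 2 (adjusted p = 0.0608). KLF10 had all GANP siRNA arrays below all NXF1 siRNA arrays on its brightest probe, with a difference of -0.21 (95% interval -0.38 to -0.04, adjusted p = 0.0731). For IER2 the difference was -0.13 (95% interval -0.32 to 0.06), again with no overlap of the 3 arrays, an arrangement in 34.6% of all genes and in 6 of these 9 (5 below against 16.1% of all genes, 1 above against 18.5%).

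EGR3, KLF10 and ZFP36L1 had several probes, which were tested over all 24401 probes above the filter. There 8.07% of probes were called after GANP siRNA, 19.4% after NXF1 siRNA and 14.0% between the depleted groups. Of the 13 probes of the early genes 12 passed the filter, with 2, 3 and 4 called in these comparisons, each on the probe already described. The probes of KLF10 annotated to NM_005655 had log2 fold changes of -0.21 and -0.20 after GANP siRNA, and 0.00 and 0.14 after NXF1 siRNA. Against NXF1 siRNA the dimmer of the pair was lower with GANP siRNA at -0.35 (standard error 0.13, adjusted p = 0.0901), with no overlap of the arrays. The KLF10 probe annotated to the transcript NM_001032282 had -0.05 after GANP siRNA and -0.10 after NXF1 siRNA, where its 3 arrays read 6.64, 7.02 and 7.27. The second probe of ZFP36L1, annotated to the expressed sequence tag AI344045, did not pass the filter (mean log2 signal 6.11), and its log2 fold changes were 0.16 and -0.03. The second EGR3 probe had 0.17 and 0.06, with a single low control array at 6.31.

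**Figure D3:**
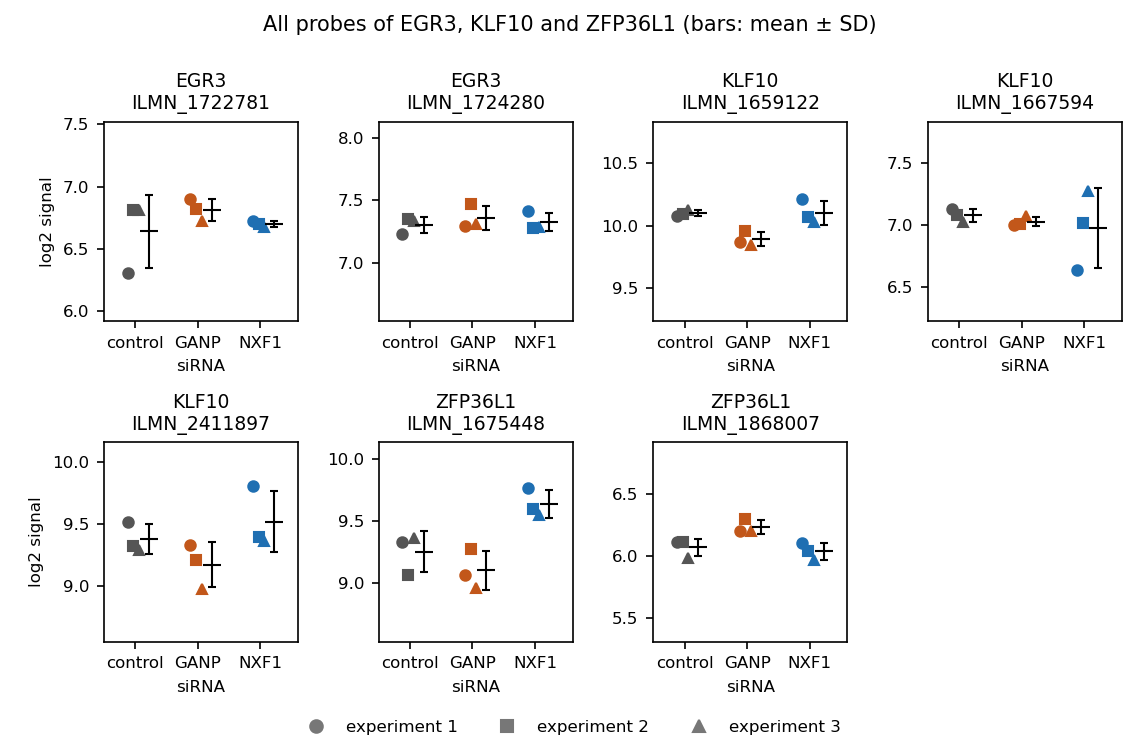
Log2 signal (y axis) of every probe of EGR3, KLF10 and ZFP36L1 in the 3 siRNA groups (x axis), with 1 symbol per experiment and bars for the mean ± SD of 3 arrays. The rise of ZFP36L1 with NXF1 siRNA is seen on the probe with a mean of 9.33 and not on the one at 6.11.

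Genes that share the biology of these 9 were taken from 4 lists, chosen with earlier results of these data known. Their called shares below are therefore a description only and do not test an enrichment. Of 28 other early transcription factors, 6 rose and 3 fell after GANP siRNA (32.1% called, against 12.2% of all genes), with a median log2 fold change of -0.04. The largest called changes of the list were in the AP-1 subunit FOS at -1.03 (standard error 0.18, adjusted p = 0.0029 in limma), in ID2, an inhibitor of helix-loop-helix factors, at 0.84 (standard error 0.08), and in FOSL1 at -0.68 (standard error 0.16). FOSL1 missed the threshold when control siRNA replicate 1 was left out (adjusted p = 0.0516), and likewise GANP siRNA replicate 3 (0.053). After NXF1 siRNA 9 rose and 4 fell (46.4% called, against 25.6% of all genes), with a median of 0.12. JUN at 1.23, the stress factor ATF3 at 1.22 and KLF4 at 0.68 (standard errors 0.12, 0.07 and 0.09) led this list.

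Of 37 early signalling, feedback and secreted genes, 4 rose and 3 fell after GANP siRNA (18.9% called, against 12.2% of all genes), while 15 rose and 3 fell after NXF1 siRNA (48.6% called, against 25.6%). Their median log2 fold changes were 0.08 and 0.24. DUSP10 at 0.63 (standard error 0.08), DUSP6, an ERK phosphatase, at -0.63 (standard error 0.10) and NFKBIA, an inhibitor of NF-κB, at 0.45 (standard error 0.09) led after GANP siRNA. After NXF1 siRNA the ERK phosphatase DUSP5 rose by 1.29 (standard error 0.11), the matricellular protein CCN2 by 1.05 (standard error 0.14) and the urokinase receptor PLAUR by 0.97 (standard error 0.08). In the direct comparison of the depletions 13 of the 37 were lower with GANP siRNA and 4 were higher (45.9% called, against 19.6% of all genes), and DUSP5 differed by -1.33 (standard error 0.11).

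Of 14 measured inducers of early genes (kinases of the ERK pathway and the factors they act on), 2 rose after GANP siRNA (14.3%, near the 12.2% called among all genes) and 5 after NXF1 siRNA (35.7%, against 25.6%), and the others were not called. The median log2 fold changes of the list were 0.12 and 0.19. MAPK3, the kinase ERK1, rose by 0.385 on the log2 scale (standard error 0.07) after GANP siRNA. ELK4, a partner of serum response factor, rose by 0.45 (standard error 0.10), the kinase MAP2K1 by 0.37 (standard error 0.09) and ELK1 by 0.33 (standard error 0.07) after NXF1 siRNA. The probes of ELK4 disagreed in size and, after GANP siRNA, in sign and call. Without control siRNA replicate 3 another probe was the brightest and ELK4 had 1.43 after NXF1 siRNA. Over all arrays that probe had 1.52 after NXF1 siRNA. After GANP siRNA it had 1.04 (adjusted p = 8.32e-05 in limma over all probes above the filter), where the one used had -0.05 (adjusted p = 0.837). The count of inducers that rose after GANP siRNA therefore depends on the probe used for ELK4. RPS6KA5 had a called rise of 0.30 after GANP siRNA that was lost without any of 6 arrays in turn (adjusted p up to 0.181) or with no filter (adjusted p = 0.0609). Between the depletions ELK3 (-0.63) and ELK4 (-0.51, or -0.29 with its probes averaged), both partners of serum response factor, were lower with GANP siRNA.

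Of 23 genes of AU-rich mRNA decay, 1 rose and 2 fell after GANP siRNA (13.0% called) and 3 rose and 3 fell after NXF1 siRNA (26.1% called), shares near the 12.2% and 25.6% of all genes. Their median log2 fold changes were -0.07 and -0.10. ELAVL1, the stabilising protein HuR, fell in both depletions, with -0.34 for GANP (standard error 0.08) and -0.56 for NXF1 (standard error 0.08, adjusted p = 4e-04 in limma). The first of these was lost without control siRNA replicate 2 or 3 or GANP siRNA replicate 2 or 3 (adjusted p between 0.0588 and 0.0801). XRN1, the exonuclease that degrades decapped mRNA, had -0.40 after NXF1 siRNA (standard error 0.11), lost without NXF1 siRNA replicate 2 (adjusted p = 0.0547) or control siRNA replicate 3 (adjusted p = 0.0689), and was 0.63 higher in GANP-depleted than in NXF1-depleted cells (standard error 0.11, adjusted p = 0.00178). The called changes of CELF1 (0.37) and KHSRP (-0.29) after GANP siRNA, of CNOT9 after NXF1 siRNA (0.37) and of CNOT9 (-0.30) and TIAL1 (-0.30) between the depletions were each lost without at least 1 array. The CNOT9 difference was also lost with no filter (adjusted p = 0.0573) and with separate fits (adjusted p = 0.076).

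**Figure D4:**
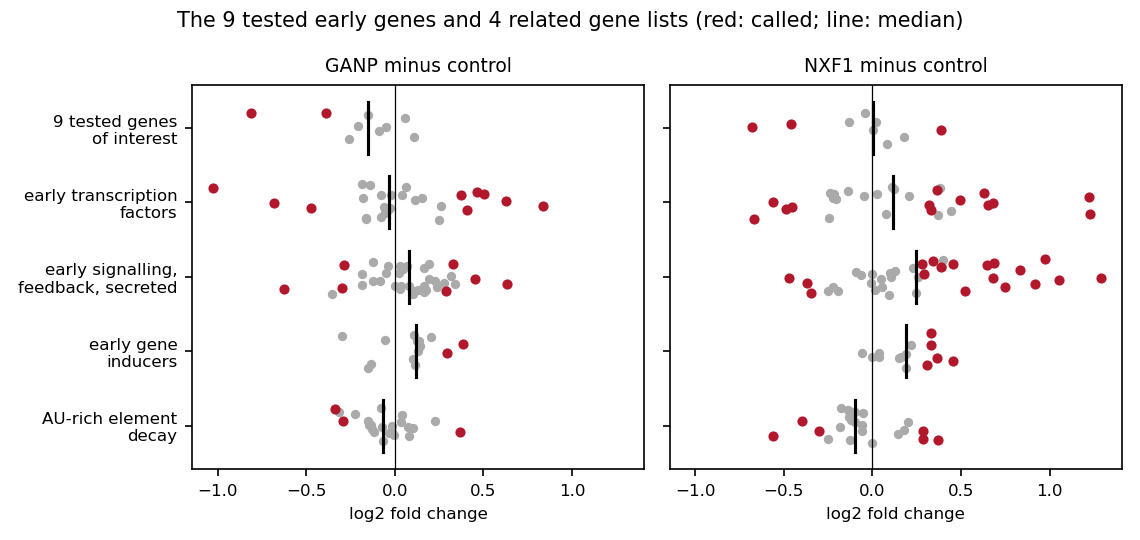
Log2 fold changes against control siRNA (x axis) for the 9 tested early genes and the 4 related lists (rows), with red points for called genes and black lines for medians. Among the signalling and secreted genes the median is 0.08 after GANP siRNA and 0.24 after NXF1 siRNA.

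The transcripts most like the 3 early genes of largest change against control siRNA were sought among the 13117 other genes tested, by Pearson correlation of log2 signal over the 9 arrays. These arrays share 3 groups and 3 experiments, so the values are a description. The signal of EGR1 was followed most closely by SPOUT1 (r = 0.96), BIRC2 (0.96) and GDF11 (0.96), with log2 fold changes of -0.39, -0.45 and -0.37 after GANP siRNA and -0.19, -0.30 and -0.30 after NXF1 siRNA. IER5 was followed by BCKDHA (r = 0.995), TCEAL4 (0.99) and ZNF358 (0.99), with log2 fold changes after NXF1 siRNA of -0.73, -0.99 and -0.65. KLF6 was followed by LYRM7 (r = 0.97), MRPL24 (0.95) and NUDC (0.95). Their log2 fold changes were -0.44, -0.20 and -0.15 after GANP siRNA, and those of MRPL24 and NUDC were smaller than the fold threshold. After NXF1 siRNA they were -0.10, -0.03 and -0.04. Among the early genes themselves the widest opposition over the arrays was between IER5 and ZFP36L1 (r = -0.81). These had the largest fall and the largest rise of the 9 after NXF1 siRNA, which enter this r.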

How the data were processed

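Cytoplasmic RNA of 9 arrays was compared, 3 per group, with groups and experiment numbers taken from the sample titles. The deposited values are intensities on the linear scale that the authors read in BeadStudio, quantile normalized and handled with lumi (version not given) and limma. A table of signals before normalization, with 18 columns named by slide and position, could not be paired with samples and was not used here. Signals were corrected with normexp (offset 50), quantile normalized again and taken to log2 with limma 3.58.1 in R 4.3.3. Of 48803 probes 27578 carried 1 symbol, 13 several and 21212 none. The 3 groups were fitted together with lmFit and eBayes, with Benjamini-Hochberg adjustment over all 13118 genes. The small number of arrays limits precision.

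The members and lists were chosen with earlier results of these data known. Named genes were the 10 members, MCM3AP, up to 3 called genes of largest change per list and comparison, and the 3 transcripts most like each of the 3 members of largest change against control siRNA. Arrays with the same experiment number, which the methods tie to a shared depletion experiment, correlated at 0.11 to 0.46 (9 pairs) after centring by group, and those with different numbers at -0.40 to 0.12 (18 pairs), so the numbers pair the samples. Alternatives were the experiment as a replicate block, other background and scaling choices, other filters and thresholds, probe averaging, separate fits, an intensity trend and leaving out each array. The fits were tested on simulated data.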

Additional observations from a re-analysis of the deposited data

Results flagged for a closer look

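For 4 early genes the effects of the depletions differed in the direct comparison of GANP siRNA with NXF1 siRNA in limma. IER5 differed by 0.59, with 0.63, 0.65 and 0.51 in experiments 1, 2 and 3, and is lower with NXF1 siRNA. ZFP36L1 differed by -0.54, with -0.70, -0.32 and -0.59 in the experiments, with -0.15 (not called) and 0.39 against control siRNA. EGR1 differed by -0.35, with -0.35, -0.21 and -0.49. KLF6 differed by -0.34, with -0.36, -0.34 and -0.33.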

How the results depend on the processing

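The calls of EGR1 and KLF6 after GANP siRNA, and of IER5 and EGR1 after NXF1 siRNA, were kept in each alternative of background, scaling, filter, probe averaging, fit and replicate block and without each array in turn, though KLF6 reached only adjusted p = 0.0488 in the weakest of the latter. The deposited values were already quantile normalized, with array medians of 95.24 to 95.32, so the scaling choices could change little. Dependence on that first normalization was not tested. Over all 510 repeats for the 9 genes, 492 kept direction and side of the threshold, 7 lost a call, 2 gained one and 9 changed sign, each at a value near 0. With the replicate block 0, 1 and 1 early genes were up and 2, 2 and 3 down in the 3 comparisons, as without it, and no call of a named gene changed. Calls among all genes grew with the block, so the shares of all genes given above would be higher with it. After GANP siRNA 1194 rose and 1114 fell (824 and 774 without the block), and after NXF1 siRNA 1791 and 2072 (1521 and 1842). Between the depleted groups 1758 were higher and 1404 lower with GANP siRNA (1483 and 1088). At an adjusted p under 0.01 the early genes down numbered 1 after GANP siRNA and 1 in GANP siRNA against NXF1 siRNA, and those up after NXF1 siRNA 0. At that threshold the probes called numbered 1 after GANP siRNA and 2 between the depleted groups, list genes 13 and 21, and all genes 659, 2127 after NXF1 siRNA and 1332 between the depleted groups.
Without 1 array in turn, early genes called up after NXF1 siRNA ranged from 0 to 2, and those down between the depleted groups from 1 to 3. Probes called ranged from 1 to 2 after GANP siRNA and from 2 to 4 between the depleted groups, list genes after GANP siRNA from 13 to 23, and all genes after GANP siRNA from 880 to 1767. Under the same omissions EGR3 ranged from -0.0004 to 0.0873 after GANP siRNA, from -0.0207 to 0.0458 after NXF1 siRNA and from -0.0231 to 0.0756 between the depleted groups. After NXF1 siRNA KLF6 ranged from -0.10 to 0.01, KLF10 from -0.0520 to 0.0395 and ZFP36 from -0.0087 to 0.14. The cause was not tested. Low signal limits EGR3 and the second ZFP36L1 probe.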

Other observations

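The close relatives of the early genes, chosen after their values were seen, differed among themselves after NXF1 siRNA. IER5L, a relative of IER5, fell by 0.47 on the log2 scale (standard error 0.10, adjusted p = 0.00421 in limma) and had -0.12 (adjusted p = 0.497) after GANP siRNA, the same order as IER5. Directly compared it was 0.34 higher with GANP siRNA, a call lost without GANP siRNA replicate 1 or 2 or NXF1 siRNA replicate 2 or 3 (adjusted p between 0.0561 and 0.119). Among Krüppel-like factors KLF4 rose by 0.68 and KLF2 by 0.37 after NXF1 siRNA, KLF9 fell by 0.49, and KLF5 (-0.21) and KLF11 (0.21) were not called. None of these 5 was called after GANP siRNA.

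Of the MAP kinase phosphatases, DUSP5 and DUSP8 rose after NXF1 siRNA by 1.29 and 0.69, while DUSP2 (0.13) and DUSP4 (0.39) were not called. DUSP4 was called between the depleted groups at -0.58, with overlapping arrays. That call was lost without NXF1 siRNA replicate 1 or 2 or GANP siRNA replicate 2 or 3 (adjusted p between 0.0627 and 0.13). DUSP10 rose by 0.63 after GANP siRNA and had 0.29 after NXF1 siRNA, which missed the threshold when either control siRNA replicate 3 (adjusted p = 0.0632) or replicate 3 of NXF1 siRNA (0.0548) was left out. DUSP6 fell by 0.63 after GANP siRNA, and its -0.35 after NXF1 siRNA was lost without replicate 2 or 3 of the control siRNA or NXF1 siRNA group (adjusted p between 0.0721 and 0.105) or with its probes averaged (adjusted p = 0.0532). ZFP36L2, a further member of the ZFP36 family, had -0.03 and 0.18 and was not called. EGR2 and EGR4, relatives of EGR1 and EGR3, were not among the genes tested.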
